A study of Mus musculus with 2 samples.

Results

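The nuclear genome encodes all of respiratory complex II, most subunits of complexes III, IV and V, and cytochrome c, and the transcripts of these genes are described here in mouse Th17 cells that lack Malat1. Members were taken by gene symbol: symbols that begin with Uqcr, Atp5 or Cox4 to Cox8, together with Sdha, Sdhb, Sdhc, Sdhd, Cyc1 and Cycs. The rule found 46 of the 16385 genes in the table: 4 of complex II, 9 of complex III, 15 of complex IV, 17 of complex V, and Cycs. The rule itself uses no measured value.

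Both libraries of the 1 group came from C57BL/6 Th17 cells knocked out for Malat1, a nuclear long non-coding RNA, and were prepared from RNA depleted of ribosomal RNA. Naive CD4+ T cells had been held for 72 h with anti-CD3ε at 0.25 µg/mL, anti-CD28 at 1 µg/mL, TGF-β at 0.1 ng/mL and IL-6 at 20 ng/mL. The series calls its 2 libraries independent biological replicates, and the title of replicate 2 names Malat1 where another of its labels names Malat2. The making of the knockout allele and the age of the mice were not given in the sources used here. The wild-type Th17 libraries of the authors' comparison come from another series, so in every difference below a genotype effect and a series effect cannot be told apart, and their single values were not used.

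Electrons from food leave complex II, and also complex I, as reduced ubiquinone, pass through complex III and the small carrier protein cytochrome c to complex IV, and there reduce oxygen. Protons pumped on the way drive complex V, the ATP synthase, whose membrane ring turns inside a catalytic head. Except for complex II, each complex joins subunits from nuclear genes with a few made from mitochondrial DNA. Activated T cells are known to raise both glycolysis and mitochondrial activity, and nuclear respiratory genes are known as targets of the transcription factors NRF1, GABPA and YY1.

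Depth was 21554852 counts in replicate 1 and 26916169 in replicate 2. T cell markers were abundant: normalized counts of Cd3e, Cd3d, Cd3g, Cd4 and Lck summed to 40015 in replicate 1 and 36951 in replicate 2. The Th17 cytokine gene Il17f had normalized counts of 63523 and 60211. The wild-type mean implied by the authors' mean column was 35683 for the T cell list and 46851 for Il17f. Markers of other tissues had lower sums. The 5 kidney tubule markers summed to 20.3 and 27.3 in the knockout libraries, against an implied wild-type mean of 29359. Umod was at 0 counts in both knockout libraries. None of the 5 passed an adjusted p under 0.05 by the authors' DESeq2 Wald test, where 0.159% of all genes with an adjusted p did. The standard errors of their log2 fold changes ran from 2.6 to 4.7. Single wild-type values were not used, so an implied mean does not show their spread. For the 6 smooth muscle and matrix markers the sums were 57.1 and 47.1 against 14016, with Col1a2 at 0 counts in both. Of these 6 only Actg2 passed, and the standard errors ran from 1.5 to 4.7. For the 6 measured of 8 striated muscle markers the sums were 29.0 and 28.1 against 962, and none passed. Most of that 962 came from Acta1, with an implied 877 beside a knockout mean of 3.28. Actc1 and Myh7 had 0 counts in both knockout libraries, beside an implied 59.5 and 2.17. Ckm had a knockout mean of 15.9 beside an implied 12.8, Tnnt2 8.97 beside 10.4, and Myh6 0.379 beside 0. Kidney and muscle are rich in mitochondria, all members but the tissue-restricted ones are active in most cell types, and the part of such RNA in the fold changes below was not tested. Malat1 itself is not analysed here. In bulk RNA, fewer cells of a type and less RNA per cell cannot be told apart.

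Among the 35 members with a RefSeq promoter sequence (GRCm38.p6), the NRF1 motif GCGCANGCG occurred on either strand in the 250 bases before the start of 9 (25.7%). The same window held it in 5.16% of all 32851 promoters and for 15.3% of the 5754 genes with a matched promoter and a mean normalized count of 500 or more. Counted per promoter, as over all promoters, the members' share was 23.7% of 38. The ETS motif CCGGAAGT, bound by GABPA, occurred in 8.57% of these members and 8.55% of the abundant genes, and the YY1 motif AAGATGGC in 2.86% and 2.64%. Matches of different motifs overlapped in no member, but a palindromic run matches the NRF1 motif on both strands. No test was run on these shares. A stretch from each group is shown as an example of the sequence in front of these genes, with the matched letters in capitals, 5′ to 3′ on the strand of the gene. Sdhd, Cycs, Cox6a1 and Atp5h carry NRF1 matches, and Uqcr11 stands for complex III, with an ETS match, since none of the 5 members of that complex with a promoter held the NRF1 letters in this window. All 5 lie on the minus strand, at chr9:50603890-50603958 (Sdhd), chr10:80406850-80406917 (Uqcr11), chr6:50566592-50566660 (Cycs), chr5:115349037-115349150 (Cox6a1) and chr11:115420022-115420090 (Atp5h).
Sdhd: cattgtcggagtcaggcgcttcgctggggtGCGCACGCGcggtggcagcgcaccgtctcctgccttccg
Uqcr11: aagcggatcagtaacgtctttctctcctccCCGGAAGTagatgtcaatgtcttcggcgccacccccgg
Cycs: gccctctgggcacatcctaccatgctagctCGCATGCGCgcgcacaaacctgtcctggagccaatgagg
Cox6a1: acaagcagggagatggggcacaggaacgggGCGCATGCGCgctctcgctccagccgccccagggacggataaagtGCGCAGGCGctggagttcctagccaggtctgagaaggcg
Atp5h: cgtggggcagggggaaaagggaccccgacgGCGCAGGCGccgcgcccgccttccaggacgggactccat

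The 46 members took 0.901% of all counts in replicate 1 (95% Wilson interval 0.897 to 0.905) and 0.876% in replicate 2 (0.872 to 0.879), intervals that cover counting error only. Most of these counts came from ATP synthase genes, which took 0.517% and 0.503% of the libraries. Complex IV took 0.174% and 0.164%, complex III 0.126% in both, complex II 0.0672% and 0.0656%, and Cycs 0.0172% and 0.0168%. No member was at 0 counts in either library. In the authors' mean over the 4 libraries of their fit, 42 members exceeded 500 normalized counts, and the other 4, all alternative isoforms of complex IV subunits, lay between 14.1 and 84.8. By knockout mean, 10 members were among the 1000 most abundant genes and 37 among the 3000 most abundant.

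Levels of different genes are given per kb, on 2 length scales, because the union of all annotated exons exceeded the median coding transcript by more than 2-fold for 22 of the 46 members (11.8-fold for Atp5l). Values per kb in the next paragraphs use the median coding transcript unless they name the union of exons.

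Complex II oxidises succinate and is anchored in the membrane by Sdhc and Sdhd. Sdhd stood at normalized counts of 3091 and 3098 in replicates 1 and 2, or 2514 ± 4.27 per kb (SD, n = 2), the highest of the 4 on both length scales. The flavoprotein gene Sdha stood at 5863 and 5636 (1983 ± 55.3 per kb, SD, n = 2) and the iron-sulphur gene Sdhb at 2594 and 2457 (2211 ± 84.6 per kb, SD, n = 2). The order of these catalytic subunits depended on the length used: the ratio of Sdha to Sdhb was 0.890 and 0.903 in the libraries per kb of coding transcript, and 1.23 and 1.24 per kb of exon union. Sdhc was lowest on both scales, at 2458 and 2202 normalized counts (1169 ± 90.9 per kb, SD, n = 2).

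In complex III, Uqcrh, the hinge protein near cytochrome c1, stood at 3675 and 3448 normalized counts and at 7506 ± 338 per kb (SD, n = 2). The small subunit gene Uqcr10 followed with 2178 and 2432 (5310 ± 414 per kb, SD, n = 2) and was the highest on the exon union scale. The core protein gene Uqcrc2 stood at 5167 and 5110 (2710 ± 21.1 per kb, SD, n = 2). Uqcrc1, the other core protein gene, was close to it at 2685 ± 123 per kb (SD, n = 2), a difference smaller than the spread of its own libraries, although on the exon union scale Uqcrc1 was the lowest of the complex. Uqcrfs1, which encodes the Rieske iron-sulphur protein, and Cyc1, which encodes cytochrome c1, carry the redox centres from nuclear genes and were the lowest per kb of coding transcript, at 1958 ± 57.2 and 1944 ± 54.0 (SD, n = 2 for each). Cycs stood at 3580 and 3425 normalized counts, or 1122 ± 35.1 per kb (SD, n = 2).

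The 11 subunit genes of complex IV with a mean of 500 or more, the forms known from most tissues, differed by 2.53-fold between the highest and the lowest per kb of coding transcript, and by 7.71-fold per kb of exon union. Cox4i1, the main form of the largest nuclear subunit, was the highest on the first scale at 5714 and 5311 normalized counts (7302 ± 377 per kb, SD, n = 2). Cox8a, a small membrane subunit, stood at 4191 and 3681 (7156 ± 655 per kb, SD, n = 2), which does not differ from Cox4i1 beyond the spread of the libraries. Cox6a1 stood at 3958 and 3313 and Cox6b1 at 3068 and 3042 normalized counts. Cox7b had the lowest mean of the 11 on this scale, at 2884 ± 50.2 per kb (SD, n = 2). Cox5b at 2952 ± 309 and Cox7a2l at 2955 ± 328 (SD, n = 2 for each) did not differ from it beyond the spread of the libraries. In replicate 2 both were below Cox7b, at 2733 and 2723 against 2920.

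ATP synthase genes had a range of 25.2-fold per kb of coding transcript and 40.4-fold per kb of exon union. Atp5b, for the catalytic β subunit, ranked 30 among all genes by knockout mean, with normalized counts of 37200 and 35456, and lies on chromosome 10 from 128083273 to 128090391 (GRCm38, ENSMUSG00000025393.12). Atp5a1, for the α subunit that alternates with β in the head, ranked 78 with 22345 and 21496. The head is known to hold equal numbers of α and β subunits. Atp5b exceeded Atp5a1 by 2.24-fold and 2.21-fold per kb of coding transcript and by 1.23-fold and 1.22-fold per kb of exon union. Atp5c1, for the single γ subunit of the central stalk, stood at 4716 and 4483 normalized counts, below Atp5a1 by 2.15-fold and 2.17-fold on the coding transcript scale and by 2.88-fold and 2.92-fold on the union scale. The stalk gene Atp5d stood at 8426 and 7250 normalized counts and Atp5e at 2366 and 2511, a ratio of 1.61 and 1.31 per kb of coding transcript and of 3.24 and 2.63 per kb of exon union. In each knockout library the β gene was above the α gene and the α gene above the γ gene, on both length scales.

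**Figure D1:**
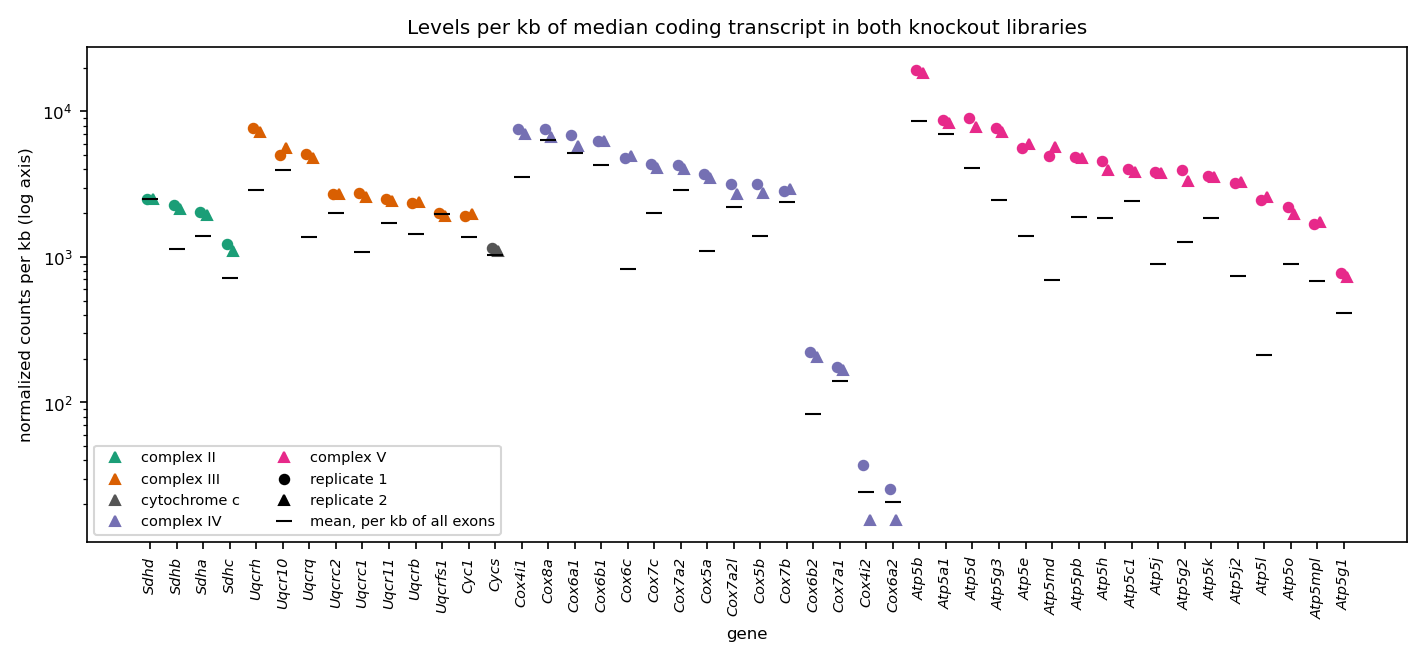
Normalized counts per kb of median coding transcript (log axis) for the 46 genes by complex, with replicate 1 as circles, replicate 2 as triangles, and short black lines for the mean per kb of exon union. Atp5b was the highest at 18961 per kb, and the 4 alternative isoform genes of complex IV were the lowest, with Cox6b2 at 213 as the highest of these.

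Several subunits have more than 1 gene, and the families were dominated by the forms known from most tissues. Cox4i2, the lung and hypoxia-responsive form, had 28 and 15 counts, or 0.472% (95% exact interval 0.314 to 0.681) and 0.214% (0.120 to 0.353) of all Cox4 counts. Cox6a2, the heart and muscle form, had 18 and 14 counts, 0.438% (0.260 to 0.691) and 0.320% (0.175 to 0.536) of its family. Cox7a1, another heart and muscle form, had 80 and 97 counts, which made 1.21% and 1.28% of Cox7a family counts, and Cox6b2, known from testis, had 100 and 117, or 3.06% (2.49 to 3.71) and 2.84% (2.35 to 3.39). At this depth each of these minor forms was detected in both libraries, and the normalized counts of Cox4i2 (27.1 and 11.4) and Cox6a2 (17.4 and 10.6) differed most between the libraries and rest on few reads. Cox7a2 and Cox7a2l split the rest of the Cox7a family: Cox7a2l, which encodes a factor known for joining complexes III and IV into supercomplexes and is known to be shortened in C57BL/6 mice, had 54.9% and 52.4% of the counts but 41.8% and 39.4% per kb of coding transcript.

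Subunit c of the ATP synthase ring has 3 genes that are known to encode the same mature protein behind different import signals. Atp5g3 held most of the counts of the family, 55.8% (54.8 to 56.7) in replicate 1 and 57.1% (56.2 to 58.0) in replicate 2 (95% exact intervals). Per kb of coding transcript its shares were 62.0% and 64.1%, those of Atp5g2 31.8% and 29.4%, and those of Atp5g1 6.22% and 6.50%. Per kb of exon union the shares of Atp5g3 were 58.4% and 60.4%, and those of Atp5g1 9.70% and 10.1%, so that the order of the 3 genes was the same on both scales, although by counts alone Atp5g1 and Atp5g2 were close. Together the 3 genes exceeded Atp5c1 by 3.08-fold and 2.92-fold per kb of coding transcript and by 1.76-fold and 1.67-fold per kb of exon union.

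**Figure D2:**
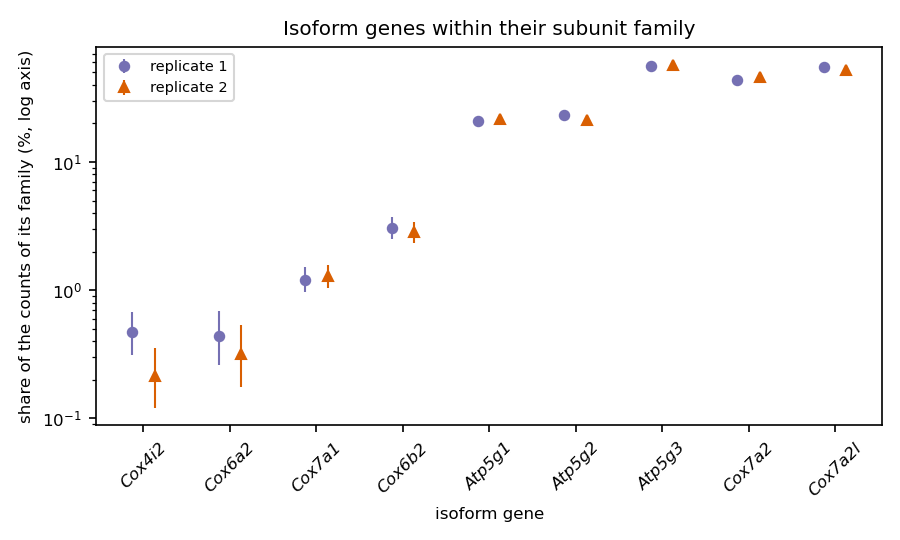
Share of each isoform gene in the counts of its subunit family (percent, log axis) in replicate 1 (circles) and replicate 2 (triangles), with 95% exact binomial intervals. Cox4i2, Cox6a2, Cox7a1 and Cox6b2 each held under 4% in both libraries, while Atp5g3 held 55.8% and 57.1% of subunit c counts.

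The authors' comparison asked which genes differ between Malat1 knockout and wild-type Th17 cells, and no nuclear-encoded subunit of complexes II to V passed in it. Of the 46 members, 0 were higher and 0 lower at an adjusted p under 0.05 by the Wald test of DESeq2 with Benjamini-Hochberg adjustment, as the authors' deposited table gives it, where 0.159% of the 14481 genes with an adjusted p passed, 0.00691% higher and 0.152% lower. With such a background a count of 0 among 46 genes does not set the members apart. At an unadjusted p under 0.05 the authors' deposited table also held 0 higher and 0 lower members, against 0.391% and 1.72% of all 16385 genes, and the smallest unadjusted p of a member was 0.255, for Uqcrfs1. The SD of the authors' Wald statistic was 0.48 over the members and 0.71 over all genes, where the test assumes 1, and a missed threshold does not show that a gene is unchanged.

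What the data do give is a bound on the size of a change. For 38 of the 42 abundant members the 95% interval from the standard error in the authors' deposited table lay within 1.5-fold in either direction, and the same held for 65.0% of all 7070 genes with a mean of 500 or more and 81.6% of the 5340 genes in the range of means of those members. The tightest belonged to the head of the ATP synthase: the authors' deposited table gives Atp5b a fold change of 0.964 (95% interval 0.877 to 1.06) and Atp5a1 one of 0.986 (0.894 to 1.09). The 4 abundant members whose interval reached past 1.5-fold were Uqcrb, Cox8a, Cox5a and Atp5mpl, with lower bounds of 0.648, 0.644, 0.660 and 0.663 by the authors' deposited table. For the 4 low isoform genes the intervals were too wide to bound a change: that of Cox4i2 ran from 0.190-fold to 24.1-fold and that of Cox6a2 from 0.0946-fold to 6.68-fold in the authors' deposited table.

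**Figure D3:**
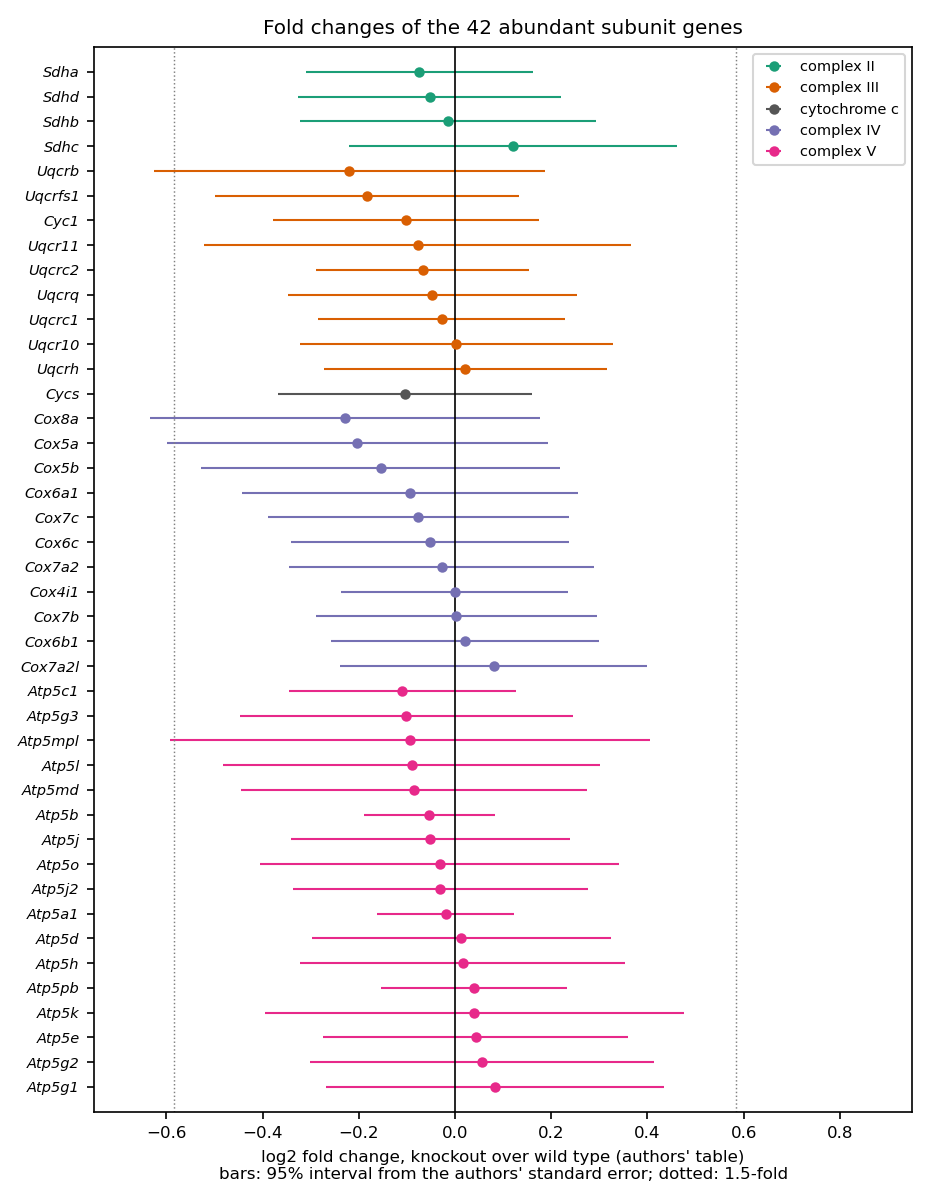
Log2 fold change, knockout over wild type, from the authors' deposited table for the 42 members with a mean of 500 or more, coloured by complex, with 95% intervals from the authors' standard errors and dotted lines at 1.5-fold. All 42 intervals include 0, and those of Atp5b and Atp5a1 are the narrowest.

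Fold changes lay more often below 0 than above it, mostly by small amounts. Of the 46 members, 16 had a positive and 30 a negative log2 fold change in the authors' deposited table, with a median of -0.040. Among the 42 abundant members 13 (31.0%) were positive with a median of -0.049, beside 52.8% and 0.0083 over all 7070 genes with a mean of 500 or more in the authors' deposited table. These genes share libraries and are not replicates, so no test was made of the shares. By complex, the medians in the authors' deposited table were -0.033 for complex II (1 of 4 positive), -0.067 for complex III (2 of 9), -0.028 for complex IV (6 of 15) and -0.030 for complex V (7 of 17), and Cycs stood at -0.10 (SE 0.13). As ratios of 1 knockout library to the implied wild-type mean, the medians without replicate 1 and without replicate 2 were -0.052 and -0.011 for complex II, -0.075 and -0.059 for complex III, -0.054 and 0.011 for complex IV, and -0.065 and -0.0032 for complex V.

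Among members with a mean of 50 or more, those with the 2 lowest and the 2 highest fold changes were not called either. Cox8a had normalized counts of 4191 and 3681 beside an implied wild-type mean of 4652, and Uqcrb, a complex III subunit that binds ubiquinone, 1250 and 1268 beside 1468. In both, each knockout library was below the implied mean, and the authors' deposited table puts their log2 fold changes at -0.23 (SE 0.21) and -0.22 (SE 0.21), for which the authors' DESeq2 gave unadjusted p-values of 0.270 and 0.289. Highest were Cox7a1 and Cox6b2. Cox7a1 had 77.4 and 73.6 beside an implied 56.2 and Cox6b2 96.7 and 88.8 beside 76.9. The log2 fold changes for these muscle and testis forms were 0.43 (SE 0.86) and 0.27 (SE 0.76) in the authors' deposited table. Of the 7 members of complex III below 0, the next after Uqcrb were Uqcrfs1 at -0.18 (SE 0.16) and, by the authors' deposited table too, Cyc1 at -0.10 (SE 0.14). In complex IV the subunits around the catalytic core, Cox5a and Cox5b, had values of -0.20 (SE 0.20) and -0.15 (SE 0.19), and Cox7a2l had 0.080 (SE 0.16), all from the authors' deposited table. Sdhc, with 2458 and 2202 normalized counts against an implied 2142, had the highest value among the abundant members, 0.12 (SE 0.17) in the authors' deposited table.

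Across complex V, log2 fold changes ran from -0.11 (SE 0.12) for Atp5c1 to 0.084 (SE 0.18) for Atp5g1 in the authors' deposited table. The genes of the peripheral stalk lay on both sides of 0, with Atp5pb at 0.039 (SE 0.099), Atp5h at 0.016 (SE 0.17), Atp5j at -0.051 (SE 0.15) and Atp5o at -0.032 (SE 0.19), values of the authors' deposited table. From the authors' deposited table, the central stalk gene Atp5e had 0.043 (SE 0.16), and the small membrane subunit genes Atp5k, Atp5l, Atp5j2, Atp5md and Atp5mpl lay between -0.093 and 0.040 there. The ring genes also lay on both sides of 0, since the authors' deposited table lists Atp5g3 at -0.10 (SE 0.18) and Atp5g2 at 0.056 (SE 0.18).

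The median size of the log2 difference between the knockout libraries was 0.081 in the 42 abundant members. For the log2 fold change in the authors' deposited table the median size was 0.054. The first is a difference of single libraries and the second one of group means, so their sizes cannot be compared directly. Over all 7070 abundant genes they were 0.090 and 0.083. Replicate 2 was lower than replicate 1 for 35 of 46 members, with a median log2 ratio of -0.073, and the median over all 7070 abundant genes was -0.0021. No abundant member differed by more than 1.2-fold between the libraries, and the largest differences were those of Atp5g2 (-0.26), Cox6a1 (-0.26) and Cox7a2l (-0.23) on the log2 scale. Set against the implied wild-type mean, 20 of the 42 abundant members were lower in both libraries, 5 (Sdhc, Cox6b1, Atp5pb, Atp5k and Atp5g1) were higher in both, and 17 had a library on either side. The same count was not made over all abundant genes, so these counts do not set the members apart. Both ratios of a gene share the implied mean, and an error in it would move them in the same direction. The median log2 ratio of the 46 members to the implied wild-type mean was -0.017 in replicate 1 and -0.072 in replicate 2.

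**Figure D4:**
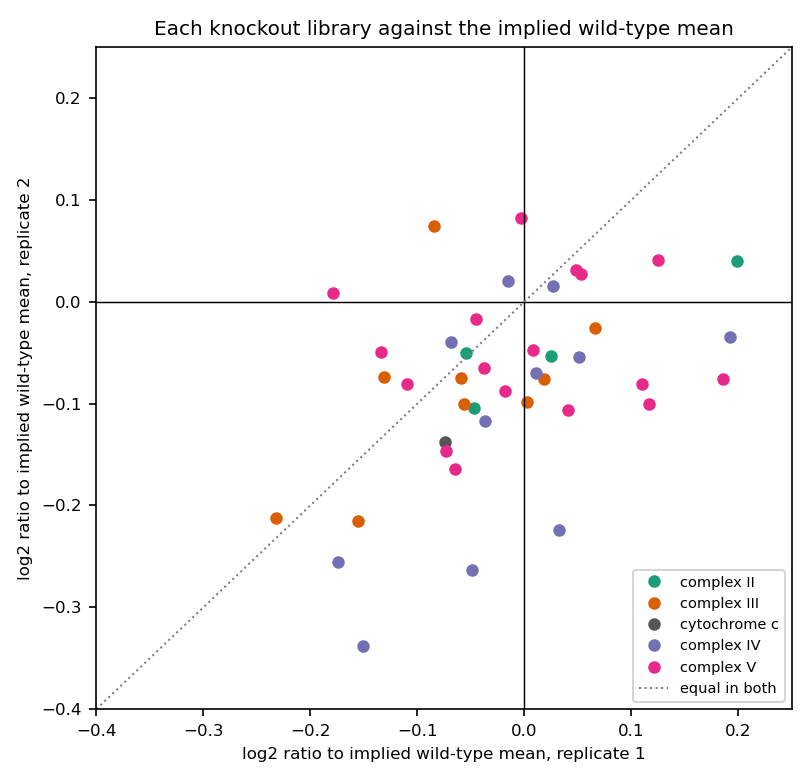
Log2 ratio of each of the 42 abundant members to the implied wild-type mean in replicate 1 (horizontal) and replicate 2 (vertical), coloured by complex, with a dotted line of equal values. The lower left part holds 20 genes, the upper right 5, and 17 have libraries on either side of 0. Both axes share the implied mean of each gene, and the same count was not made over all abundant genes.

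Complexes III, IV and V also need subunits from mitochondrial DNA, and 2 of the 6 measured ones were called lower. Over all genes with an adjusted p the share called lower was 0.152%. By the authors' deposited table mt-Cytb, the cytochrome b of complex III, had a log2 fold change of -0.64 (SE 0.13) and mt-Co1, the catalytic subunit of complex IV, one of -0.33 (SE 0.064), for which the authors' DESeq2 gave adjusted p-values of 0.000687 and 0.000648. Their normalized counts were 20682 and 29655 for mt-Cytb and 96536 and 118789 for mt-Co1, both higher in replicate 2, against implied wild-type means of 40444 and 135900. The other 4 (mt-Co2, mt-Co3, mt-Atp6 and mt-Atp8) had 6 to 151 counts per library, beside 99792 and 156509 for mt-Co1. The handling of shared reads was not given in the sources used here, and a loss of such reads from these 4 was not tested. Their counts are therefore not read as levels of the transcripts. All 6 were higher in replicate 2 than in replicate 1, by 0.52 for mt-Cytb and 0.30 for mt-Co1 on the log2 scale. The median over the 6 was 0.63, beside -0.073 for the nuclear members, but it includes the 4 genes with few counts. Nuclear and mitochondrial subunits of a complex were not tested against each other.

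Other genes of the pathway, taken from lists chosen with earlier results of these data known, gave 0 calls higher and 0 lower. Over all genes with an adjusted p only 0.159% passed, so this count does not set the lists apart. At an unadjusted p under 0.05 the shares over all genes were 0.391% higher and 1.72% lower. Neither the adjusted nor the unadjusted p of any gene was under 0.05, in either direction, among 39 assembly factors, 18 genes of the tricarboxylic acid cycle, 8 carriers, porins and the ATP synthase inhibitor, 17 genes of haem attachment, ubiquinone synthesis and electron entry, and 16 regulators of mitochondrial gene expression, by the Wald p-values of DESeq2 that the authors' deposited table holds. The medians of their log2 fold changes in that source, the authors' deposited table, were -0.0031, -0.093, -0.035, -0.062 and 0.025. Over all 16385 genes the median was -0.031, but that set holds many genes with low counts. It was -0.0032 over genes with a mean of 50 or more and 0.0083 over those with a mean of 500 or more.

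Among the assembly factors Higd1a, which binds complex IV, had 6741 and 5916 normalized counts and a log2 fold change of 0.098 (SE 0.12) in the authors' deposited table, Tmem70, needed for ATP synthase assembly, -0.15 (SE 0.22), and Atpaf1, a chaperone of the β subunit, -0.23 (SE 0.47). Dld, Idh2 and Dlat, enzymes of the tricarboxylic acid cycle and of the dehydrogenase complexes that feed it, stood at -0.22 (SE 0.15), -0.38 (SE 0.33) and -0.17 (SE 0.18), as listed in the authors' deposited table. The authors' deposited table has the porin genes Vdac1 and Vdac2 at -0.069 (SE 0.091) and -0.079 (SE 0.11), and Slc25a31, a testis carrier of adenine nucleotides, had only 2 and 8 counts. Coq8b, Pdss1 and Coq8a, of ubiquinone synthesis, had log2 fold changes of 0.24 (SE 0.27), -0.36 (SE 0.47) and -0.31 (SE 0.60) in the authors' deposited table.

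Of the regulators, Yy1 had 2922 and 2856 normalized counts beside an implied 3585 and a log2 fold change of -0.30 (SE 0.19) in the authors' deposited table, and Esrra, an orphan nuclear receptor of mitochondrial genes, -0.30 (SE 0.29). Nrf1 itself, whose motif was the most frequent of the 3 in these promoters, had 1225 and 1441 normalized counts, an implied wild-type mean of 1286 and a log2 fold change of 0.046 (SE 0.22) in the authors' deposited table. Gabpa stood at 1462 and 1717 with -0.14 (SE 0.23) in the authors' deposited table, and Tfam, which packages and transcribes mitochondrial DNA, at 966 and 968 with 0.027 (SE 0.24). The coactivator gene Ppargc1a had 0 and 2 counts in the knockout libraries beside an implied wild-type mean of 166. Its log2 fold change in the authors' deposited table was -3.5 (SE 4.7), an error too wide to bound a change, and it was not called.

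**Figure D5:**
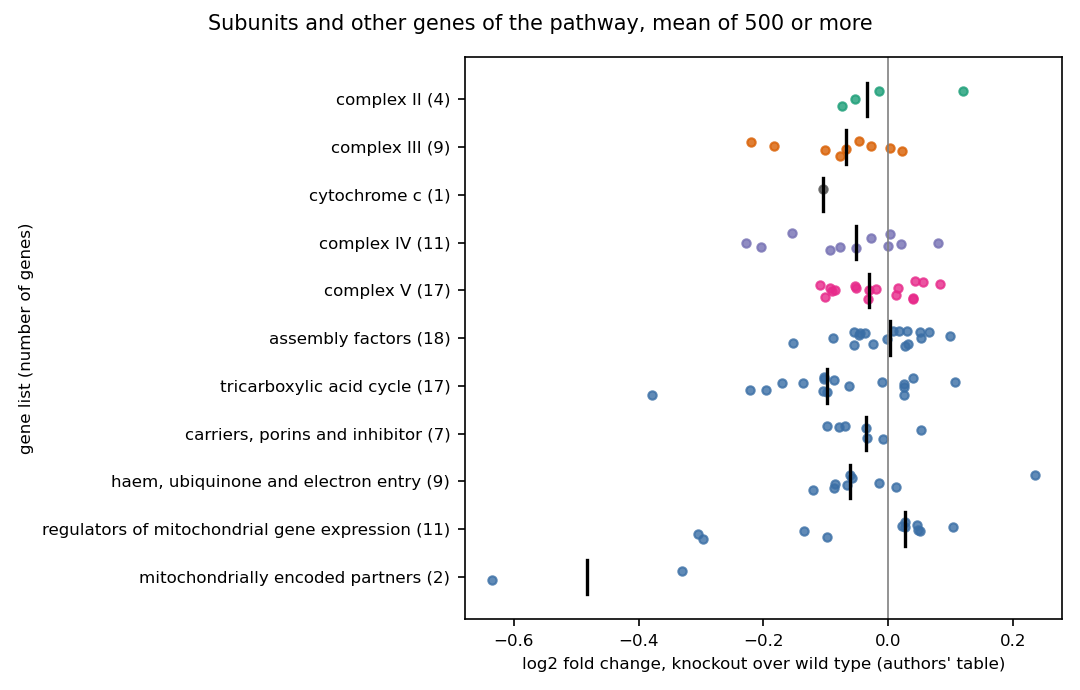
Log2 fold changes, knockout over wild type, from the authors' deposited table for genes with a mean of 500 or more, by complex and by list, with points for genes, black lines for medians and the number of genes in parentheses. Nuclear subunits lay between -0.23 and 0.12, and the 2 mitochondrially encoded genes shown at -0.64 and -0.33.

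The 46 genes are spread over 19 chromosomes, with at most 5 on 1 of them. Exons of 14 members overlap those of another annotated gene, 13 of them on the opposite strand, such as 397 bases of Atp5j with Gabpa and 504 bases of Uqcrc2 with Pdzd9. The strand setting of the counting was not given in the sources used here, and reads from such stretches could then belong to either gene. Cycs and several Cox, Uqcr and Atp5 genes are known for processed pseudogenes of near-identical sequence, and the counts of these genes are uncertain to the extent that reads were shared. The annotation holds 2 overlapping entries named Atp5o, whose reads could likewise be split.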

How the data were processed

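The deposited table of 16385 genes holds raw counts per gene for each knockout library, as whole numbers deposited by the authors, and normalized counts, a signal the authors made by dividing by a size factor per library (1.03 and 1.32). The authors' column of means averages that signal over 4 libraries. The log2 fold changes and their standard errors, the Wald statistic (a score) and the p-values were deposited by the authors. STAR 2.6.1a, featureCounts, DESeq2 1.18.1 and mm10 are named per the submitters' processing notes. The annotation, strand setting, handling of shared reads and model factors were not given in the sources used here. The name of the deposited table calls the fit multifactor without listing the factors, and the implied wild-type mean takes no account of further factors. Another 4 per-sample columns belong to no sample analysed here. They were left out of every step, although a few of their values were displayed when the table was opened.

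Fold changes were read as knockout over wild type. No new test between genotypes was run: calls are those of the authors' DESeq2 across all genes. The implied wild-type mean is the value left when both knockout values are taken from the authors' 4-library mean. Log2 ratios to it differed from the authors' fold changes by a median of 0.0011 in size over the abundant members. Abundant means an authors' mean of 500 or more. Intervals at 95% use the authors' standard errors, Wilson's method for library shares and the Clopper-Pearson exact method for isoform shares. PCR reads without molecular identifiers are not independent molecules. Gene lengths, GC content and overlaps come from GENCODE M21 (GRCm38), which matched 16371 genes and all 46 members. RefSeq promoters matched 35 members. Windows stop at the RefSeq start. The GC trend and the adjustment were tested on simulated data. Python 3.11.15, pandas 2.3.3, numpy 2.4.6, scipy 1.17.1 and matplotlib 3.10.9 were used.

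The members and lists were chosen with earlier results of these data known. Every member may be named. Library values are given for the 3 members of each complex with the most counts per kb of exon, the 2 highest and 2 lowest fold changes at a mean of 50 or more, and the isoform families, and up to 3 genes of each other list by smallest p. Nrf1, Gabpa, Tfam and other members given by value lie outside that rule and were chosen once their values had been seen. The summed level of the Th17 marker list is not reported here.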

Additional observations from a re-analysis of the deposited data

How the results depend on the processing

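Counts of members past an adjusted p stayed at 0 in each direction when the adjustment was made over every gene with a p-value or over genes with a mean of 50 or more, and counts at an unadjusted p stayed at 0 in members with a mean of 50 or more. The median log2 fold change over members, -0.040, ranged from -0.072 (without replicate 1) to -0.017 (without replicate 2), and was -0.060 with the GC trend subtracted. Centring on the median of abundant genes, a shift of 0.0083, gave -0.048, and changed the sign of 2 members. The median of complex IV, -0.028, was 0.011 without replicate 2 and -0.054 without replicate 1. The share of members above 0 was 34.8% and ran from 26.1% to 45.7% without each replicate. Leaving out replicate 1 changed the sign of 6 members and leaving out replicate 2 that of 11, all uncalled. Relative levels of genes depend on the length used, as given with each ratio. Centring on genes with 10 or more counts in both libraries gave -0.041. That centring and the coding transcript length were chosen after seeing the data. No paired analysis was possible because the samples form 1 group and the wild-type libraries are not among them. Depth limits Cox4i2 and Cox6a2, with 14 to 28 counts per library.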
